A study of Homo sapiens with 4 samples.

Results

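Transcripts of 10 genes that set the pace of the G1 phase of the cell cycle were followed in human T-ALL (T-cell acute lymphoblastic leukaemia) cells exposed to FB23-2. The genes were taken by name from a table of 64252 Ensembl gene IDs, and each matched 1 row. They are the inhibitor genes CDKN1A, CDKN1B, CDKN2C and CDKN2D, the D cyclin genes CCND1, CCND2 and CCND3, the kinase genes CDK4 and CDK6, and the substrate gene RB1. The cells were J.gamma1, a mutant clone of the Jurkat line known to lack the signalling enzyme PLCG1. FB23-2 is a small molecule made to inhibit FTO, an enzyme that removes methyl marks from RNA adenosines. One group received 10 µM FB23-2 and the other was a control given DMSO at under 0.1%, and both were harvested at 48 h. Each group had 2 libraries, described in the labels as independent biological replicates of a single clone.

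D cyclins bind and activate CDK4 and CDK6, and the active kinases phosphorylate the RB1 protein, which then releases E2F transcription factors that switch on genes for DNA synthesis. The INK4 inhibitors, encoded here by CDKN2C (p18) and CDKN2D (p19), bind CDK4 and CDK6 and keep them from the D cyclins. The CIP/KIP inhibitors, encoded by CDKN1A (p21) and CDKN1B (p27), act mainly on cyclin complexes of CDK2 and also bind complexes of D cyclins. Cyclin D3 and CDK6 are the forms known to matter most in thymocytes and T-ALL, and Jurkat cells are known to have lost the INK4 locus that holds CDKN2A and CDKN2B.

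Sequences just before the transcription starts were examined because CDK4 is a textbook target of the transcription factor MYC, whose RNA was measured as well. RefSeq windows of 250 bases before the start (GRCh38.p14) were found for 8 of the 10 genes, 13 windows in all. The E-box CACGTG, the palindrome bound by MYC with its partner MAX, is in capitals below. CDK4 is shown because its window held 3 E-boxes, CDKN2C because the window of its most upstream start held 1, and CDKN2D because its window held none and its RNA had the highest fold change of the 10. The windows lie at chr12:57752311-57752560 on the minus strand for CDK4, chr1:50960495-50960744 on the plus strand for CDKN2C, and chr19:10568980-10569229 on the minus strand for CDKN2D.
CDK4: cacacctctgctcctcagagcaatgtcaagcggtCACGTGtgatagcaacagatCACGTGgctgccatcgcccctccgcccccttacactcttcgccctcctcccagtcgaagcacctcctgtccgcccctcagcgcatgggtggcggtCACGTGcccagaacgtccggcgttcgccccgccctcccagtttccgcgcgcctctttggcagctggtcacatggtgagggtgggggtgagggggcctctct
CDKN2C: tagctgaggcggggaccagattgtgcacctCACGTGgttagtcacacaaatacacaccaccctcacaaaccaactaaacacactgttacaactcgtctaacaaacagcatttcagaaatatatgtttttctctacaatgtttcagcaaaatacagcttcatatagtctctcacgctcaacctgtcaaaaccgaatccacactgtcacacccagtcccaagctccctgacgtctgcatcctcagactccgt
CDKN2D: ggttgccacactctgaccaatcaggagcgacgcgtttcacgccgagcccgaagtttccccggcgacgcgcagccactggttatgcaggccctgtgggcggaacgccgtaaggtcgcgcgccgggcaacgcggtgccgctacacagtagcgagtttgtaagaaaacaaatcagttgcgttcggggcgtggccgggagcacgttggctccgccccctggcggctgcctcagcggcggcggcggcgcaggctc

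The CDK4 E-boxes began 216, 196 and 101 bases before the start. Of 35116 RefSeq windows of the same length, 6.34% held at least 1 E-box and 28, or 0.0797%, held at least 3. The CDKN2C E-box began 220 bases before its start, and a window of a more downstream CDKN2C start held another at 69 bases. The other 10 windows held none. A FOXO motif (GTAAACA), an E2F motif (TTTCCCGC, TTTCGCGC, TTTGCCGC or TTTGGCGC) and the CHR element (TTTGAA), all searched on both strands, had no match in the 13 windows, against 2.98%, 2.79% and 13.3% of all windows. These are matches of letters only, and binding was not measured. GENCODE release 29 has transcripts of CDK4 and of CDKN2D that start within the windows shown, and the RB1 window belongs to an internal start.

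The libraries held 37804516 and 33983246 counts with FB23-2 and 24615359 and 34897961 counts in control, so that 3 counts, taken as the floor, correspond to 0.0794 to 0.122 CPM (counts scaled to library size). T lineage markers marked the cells as labelled: 12 of 12 averaged at least 1 CPM, with a summed level of 1507 to 1588 CPM with FB23-2 and 2063 to 2070 CPM in control. Of 18 markers of other lineages, 9 reached 1 CPM on average, and 1 had 0 counts in all libraries. Their summed level was 113 to 120 CPM with FB23-2 and 161 to 170 CPM in control, most of it from PECAM1 (53.8 ± 3.12 CPM with FB23-2 and 108 ± 1.78 CPM in control, SD, n = 2) and CD79A (43.4 ± 1.58 CPM with FB23-2 and 41.6 ± 3.81 CPM in control). PLCG1 RNA was present in both groups at 293 ± 2.49 and 265 ± 0.276 CPM (FB23-2 and control, SD, n = 2), which does not bear on the protein that the clone is known to lack. FTO, which encodes the targeted enzyme, averaged 61.8 ± 1.44 CPM in the FB23-2 libraries and 55.9 ± 0.0214 CPM in the control libraries, and its adjusted p of 0.0738 (edgeR) missed the threshold. Library size scaling gave 0.0238, the lowest of its alternatives, which reached up to 1. MYC RNA was 62.5 ± 5.64 CPM with FB23-2 and 367 ± 1.08 CPM in control.

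The 4 inhibitor transcripts and RB1 rose with FB23-2, while CDK4, CDK6, CCND1 and CCND3 fell. All 10 genes were tested. At a Benjamini-Hochberg adjusted p of 0.05 over 18817 tested genes (edgeR's quasi-likelihood test), 5 of the 10 were higher and 4 lower, and CCND2 did not pass. Over all tested genes 42.1% passed, 21.8% higher and 20.3% lower. The median log2 fold change was 0.18 over the 10 genes and 0.00 over all tested genes. CCND1 passed the filter on low counts through both control libraries and only 1 FB23-2 library, so its presence in the test is tied to its higher level in control. Without control replicate 2, the count of lower genes was 2 in place of 4, with CDK4 and CDK6 remaining. The cells were measured in bulk, so a change in the share of cells in a phase of the cycle and a change in RNA per cell cannot be told apart. Levels are CPM after TMM scaling and are relative to all RNA of a library. The part of the lower lineage marker sums in these results was not tested. Values after ± are the SD over 2 libraries for levels and the standard error (SE) for log2 fold changes, which are FB23-2 over control.

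**Figure D1:**
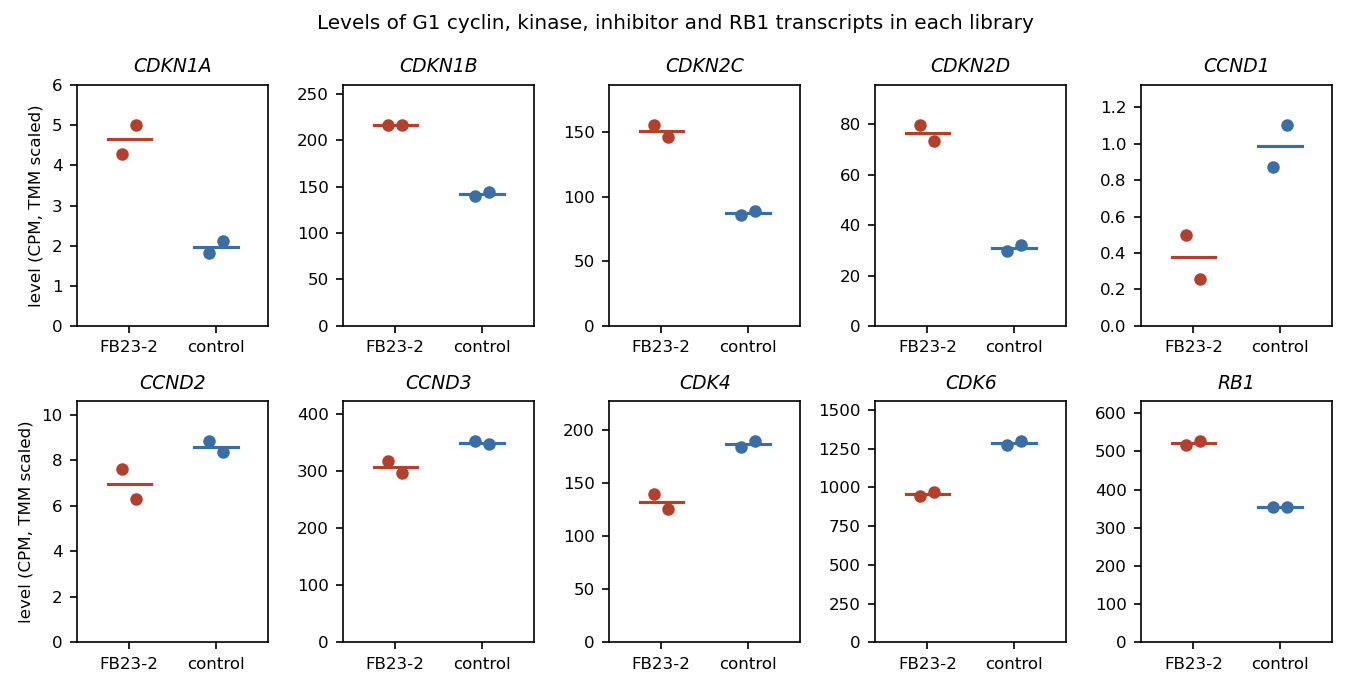
Levels of the 10 transcripts in each library (CPM after TMM scaling, y axes from 0 and different for each gene), with FB23-2 at the left and control at the right of each panel. Points are libraries and lines are group means of 2 libraries. Separate points are not a call by themselves: those of CCND2 did not overlap, yet CCND2 missed the threshold.

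CDKN2D encodes p19, an INK4 inhibitor of CDK4 and CDK6. It had 79.9 and 73.5 CPM in the FB23-2 libraries, against 29.9 and 32.3 CPM in the control libraries. Both FB23-2 libraries were far above both control libraries, and the lowest of them had more than the sum of the control values. The level was 2.46-fold higher with FB23-2, a log2 fold change of 1.30 ± 0.07 (edgeR adjusted p = 2.03e-06). CDKN2D remained past the threshold under each of 13 alternatives (adjusted p up to 1.81e-04), including a test against a change of 1.5-fold. The gene lies at chromosome 19, 10566462 to 10569059 of hg38 (ENSG00000129355), and shares no exon base with another annotated gene.

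CDKN2C, which encodes the related INK4 protein p18, had 156 and 146 CPM with FB23-2, against 85.7 and 89.1 CPM in control. The groups did not overlap, and the distance between them was several times the spread within each. This was a 1.73-fold difference, 0.79 ± 0.05 on the log2 scale (edgeR adjusted p = 4.64e-06). It too remained past the threshold against 1.5-fold (adjusted p = 0.0100, in a range over the alternatives that had this value as its highest). CDKN2C lies at chromosome 1, 50960745 to 50974633 (ENSG00000123080). These were the members whose calls withstood all 13 alternatives.

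CDKN1B encodes p27, a CIP/KIP inhibitor that rises as cells leave the cycle. It had 217 and 216 CPM with FB23-2, against 139 and 144 CPM in control. The FB23-2 libraries were almost equal and both were above both control libraries. CDKN1B was 1.53-fold higher, by 0.61 ± 0.04 in log2 units (edgeR adjusted p = 6.00e-06). It passed under each alternative except the test against 1.5-fold (0.648, the highest of the alternatives). CDKN1B lies at chromosome 12, 12715058 to 12722371 (ENSG00000111276).

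CDKN1A encodes p21, a CIP/KIP inhibitor. Its RNA was scarce: FB23-2 libraries held 164 and 174 counts, control libraries 44 and 73. As levels these were 4.29 and 5.02 CPM with FB23-2, against 1.83 and 2.12 CPM in control, so that the groups stood apart at a low level. The log2 fold change of 1.21 ± 0.23, or 2.32-fold, was close in size to that of CDKN2D but had a wider error (edgeR adjusted p = 0.00245). The call held in every alternative but the test against 1.5-fold (0.0585, in a range of 0.00156 to 0.0585). CDKN1A lies at chromosome 6, 36676460 to 36687339 (ENSG00000124762), and 4.79% of its exon bases are shared with DINOL on the opposite strand, which has no row in the count table.

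Of the inhibitor genes outside the 10, CDKN1C, which encodes the CIP/KIP protein p57, averaged 5.28 ± 0.862 CPM in FB23-2 libraries and 4.56 ± 0.244 CPM in control libraries and did not pass (log2 fold change 0.23 ± 0.20, edgeR adjusted p = 0.394). CDKN2A had 0 and 0 counts with FB23-2 and 3 and 0 in control. CDKN2B had 2 and 3 counts with FB23-2 and 2 and 0 in control. Both genes of that INK4 locus were thus at or under the floor of 3 counts in every library, and neither was tested.

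RB1 encodes the retinoblastoma protein that the D cyclin kinases phosphorylate. It had 516 and 527 CPM with FB23-2, against 355 and 354 CPM in control. The groups did not overlap, and the control libraries were nearly equal. RB1 was 1.47-fold higher, 0.56 ± 0.04 as a log2 fold change (edgeR adjusted p = 4.21e-06). The call was lost only in the test against 1.5-fold (1, the highest of the alternatives). RB1 lies at chromosome 13, 48303726 to 48599436 (ENSG00000139687).

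CDK6, the more abundant of the D cyclin kinases here, had 942 and 969 CPM with FB23-2, against 1274 and 1297 CPM in control. Both FB23-2 libraries were lower than both control libraries by more than the spread within either group. In log2 units CDK6 changed by -0.43 ± 0.03 (edgeR adjusted p = 1.35e-05). The level in control was 1.35-fold that with FB23-2. CDK6 lies at chromosome 7, 92604921 to 92836594 (ENSG00000105810). Of the CDK6 exon bases, 0.661% are shared with the antisense gene CDK6-AS1 on the opposite strand. CDK6-AS1 had 5.55 and 4.67 CPM with FB23-2 and 8.26 and 7.06 CPM in control. CDK6-AS1 fell as well (-0.56 ± 0.17, edgeR adjusted p = 0.0272). That call was lost when FB23-2 replicate 2 (0.134), control replicate 1 (0.136) or control replicate 2 (0.0589) was left out, and without a filter (0.0542). Its alternatives ranged from 0.0176 to 1.

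CDK4 had 140 and 125 CPM with FB23-2, against 184 and 190 CPM in control. The FB23-2 libraries differed more from each other than the control libraries did, but the groups stood apart. CDK4 changed by -0.49 ± 0.06 in log2 units (edgeR adjusted p = 1.16e-04), with control 1.41-fold above FB23-2. For CDK4 and for CDK6 the test against 1.5-fold was the only alternative that ended the call (adjusted p of 1 for each, the highest of their alternatives). CDK4 lies at chromosome 12, 57747727 to 57756013 (ENSG00000135446). It shares 43.2% of its exon bases with TSPAN31 on the opposite strand, and without a stated strand setting, reads of the pair cannot be told apart there. TSPAN31 was far less abundant, with 4.32 and 5.74 CPM with FB23-2 and 6.72 and 9.27 CPM in control. It fell too (-0.71 ± 0.21, edgeR adjusted p = 0.0218), but the call was lost when FB23-2 replicate 1 (0.133) or control replicate 2 (0.280) was left out and when no filter was used (0.0581). Its alternatives ranged from 0.00846 to 0.638.

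CCND3 encodes cyclin D3 and had the most RNA of the D cyclin genes here. It had 318 and 297 CPM with FB23-2, against 353 and 348 CPM in control. The groups did not overlap, although the gap between the nearest libraries of the groups was not much wider than the difference between the FB23-2 libraries. The log2 fold change of -0.19 ± 0.04 was the smallest of those that passed (edgeR adjusted p = 0.00651). CCND3 did not pass without control replicate 2 (0.0550) or against 1.5-fold (1), in a range of 0.00104 to 1. It lies at chromosome 6, 41934933 to 42050357 (ENSG00000112576).

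CCND2, which encodes cyclin D2, had 7.62 and 6.28 CPM with FB23-2, against 8.84 and 8.37 CPM in control. Both FB23-2 values lay under both control values, but a change of -0.30 ± 0.16 in log2 units missed the threshold (edgeR adjusted p = 0.162), as it did under every alternative run (0.0928 to 1). CCND2 lies at chromosome 12, 4273772 to 4305350 (ENSG00000118971). It shares 13.8% of its exon bases with ENSG00000285901 on the same strand, which has no row in the count table. Its antisense gene CCND2-AS1 had 0 counts in all libraries.

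CCND1, which encodes cyclin D1, was barely present, with 19 and 9 counts with FB23-2 and 21 and 38 counts in control. As levels these were 0.497 and 0.259 CPM with FB23-2, against 0.872 and 1.10 CPM in control. The log2 fold change of -1.38 ± 0.47 was the lowest of the 10 and carried the widest error (edgeR adjusted p = 0.0394). The call was lost when any of FB23-2 replicate 2 (0.179), control replicate 1 (0.0799) and control replicate 2 (0.239) was left out, with DESeq2 (0.139), with no filter (0.0729) and against 1.5-fold (0.289), in a range of 0.0351 to 0.289. CCND1 lies at chromosome 11, 69641087 to 69654474 (ENSG00000110092) and shares 10.3% of its exon bases with LTO1 on the opposite strand. LTO1 averaged 18.02 ± 2.65 CPM in FB23-2 libraries and 23.0 ± 2.60 CPM in control libraries (-0.37 ± 0.13, edgeR adjusted p = 0.0407). Without FB23-2 replicate 1 or control replicate 2, with library size scaling, DESeq2 or no filter, and against 1.5-fold, LTO1 did not pass (range 0.0145 to 1).

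**Figure D2:**
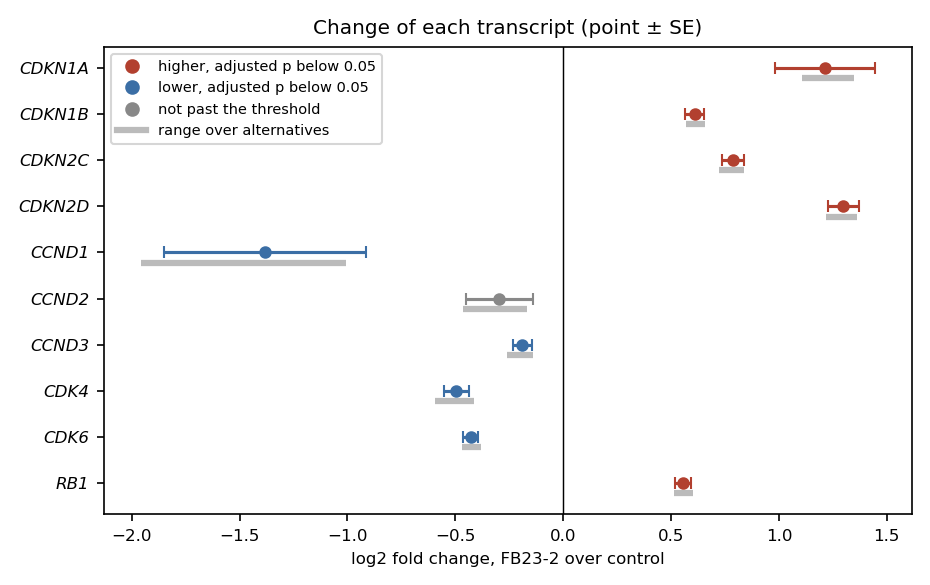
Log2 fold change of each transcript, FB23-2 over control, with points at the estimate and bars of 1 SE. Grey bars give the range of the estimate over the alternatives, which stayed on 1 side of 0 for each of the 10 genes, from -1.96 to -1.01 for CCND1 and from 1.22 to 1.36 for CDKN2D.

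Levels were compared between genes after division by the length of all annotated exons of a gene (CPM per kb). With FB23-2 the order was RB1 (80.8 ± 1.14 CPM per kb, SD, n = 2), CDK6 (77.9 ± 1.58), CDKN1B (77.0 ± 0.0756), CCND3 (53.0 ± 2.54), CDKN2D (51.0 ± 2.97), CDKN2C (45.5 ± 2.10) and CDK4 (41.9 ± 3.27), then CDKN1A (1.53 ± 0.168), CCND2 (0.971 ± 0.132) and CCND1 (0.0783 ± 0.0348). In control it was CDK6 (105 ± 1.38 CPM per kb), CCND3 (60.4 ± 0.578), CDK4 (59.0 ± 1.16), RB1 (55.0 ± 0.0880), CDKN1B (50.5 ± 1.197), CDKN2C (26.3 ± 0.715) and CDKN2D (20.7 ± 1.10), then CCND2 (1.202 ± 0.0469), CDKN1A (0.647 ± 0.0682) and CCND1 (0.204 ± 0.0340). Per kb, RB1 and CDKN1B stood above CCND3 and CDK4 with FB23-2 and under both in control. This order depends on length. In mean CPM with no division by length, RB1 was above CCND3 and CDK4 in both groups, and CDKN1B under CCND3 in both. Of these pairs, only CDKN1B and CDK4 still changed places (217 and 133 CPM with FB23-2, 142 and 187 CPM in control). Outside these pairs, CDKN2C and CDK4 also changed places in CPM (151 and 133 with FB23-2, 87.4 and 187 in control). In the FB23-2 libraries the ranges of 3 neighbouring pairs overlapped, CDK6 with CDKN1B, CCND3 with CDKN2D, and CDKN2C with CDK4, so that their order is not set. In the control libraries no neighbours overlapped, although CCND3 and CDK4 came within 1 CPM per kb of each other.

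Within the D cyclins the make-up hardly differed between groups. CCND3 made up 97.9% and 98.2% of the summed D cyclin level per kb with FB23-2, against 97.7% in each control library. CDK6 made up 63.5% and 66.6% of the summed level of both kinases per kb with FB23-2, against 64.1% and 63.9% in control, and these ranges overlapped. The make-up of the inhibitors differed more. CDKN2D took 29.7% and 28.5% of the summed inhibitor level per kb with FB23-2, against 20.7% and 21.4% in control. CDKN1B took 43.2% and 44.9% with FB23-2, against 51.7% and 51.2% in control. Such shares and ratios do not depend on how libraries are scaled, and with 2 libraries a group they were not tested. Their size does depend on length. With no division by length, CDKN2D averaged 17.1% of the inhibitors with FB23-2 and 11.9% in control. CDK6 then averaged 87.8% of the kinases with FB23-2 and 87.3% in control.

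The summed inhibitor level per kb was 1.48 and 1.45 times that of CDK4 plus CDK6 in the FB23-2 libraries, against 0.592 and 0.606 in the control libraries. Both FB23-2 libraries thus had more inhibitor than kinase RNA per kb, and both control libraries less. These sums were chosen after the values were seen, and they set genes called higher over genes called lower. Their direction follows from the single genes and is not a separate result. For CDKN2C plus CDKN2D alone the ratio was 0.827 and 0.783 with FB23-2, against 0.282 and 0.292 in control. For CDKN1A plus CDKN1B it was 0.649 and 0.663 with FB23-2, against 0.310 and 0.314 in control. The D cyclins relative to the same kinases moved less, at 0.462 and 0.439 with FB23-2 and 0.384 and 0.371 in control. With no division by length the inhibitors stood at 0.413 ± 0.0136 of the kinases with FB23-2 and 0.178 ± 0.00267 in control (SD, n = 2), so the side of 1 depends on length while the direction between groups does not.

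**Figure D3:**
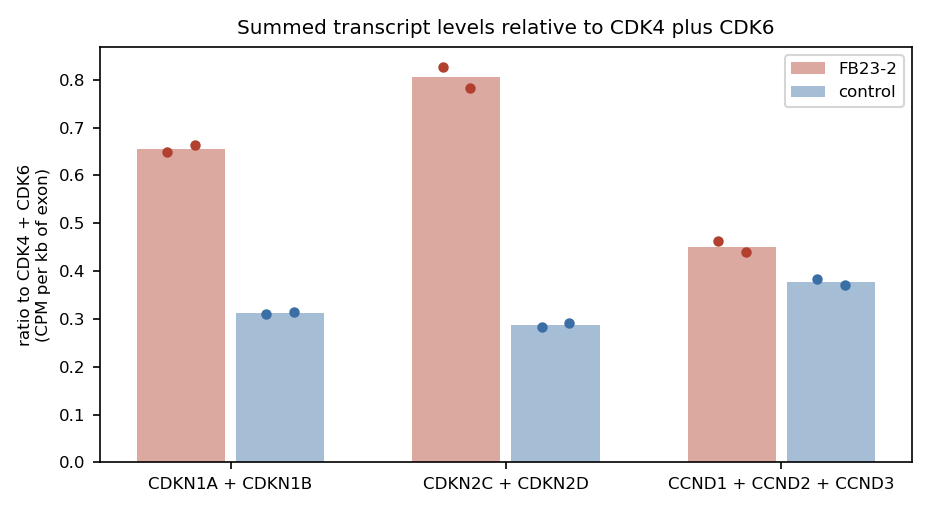
Summed levels of CIP/KIP inhibitors, INK4 inhibitors and D cyclins divided by the summed level of CDK4 and CDK6 (all CPM per kb of exon), with FB23-2 at the left of each pair and control at the right. Bars are means and points the 2 libraries of a group; the INK4 ratio is 0.805 with FB23-2 and 0.287 in control.

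Cyclin E, cyclin A and CDK2 carry the cell from G1 into S phase after the D cyclin kinases. Of 9 genes for these proteins and their activators, 5 were higher, 0 lower and 4 did not pass, with a median log2 fold change of 0.19. This count and those of the lists that follow stand against 21.8% higher and 20.3% lower over all tested genes, and no list was tested as a whole. CCNE2, which encodes cyclin E2, averaged 95.5 ± 2.69 CPM with FB23-2 and 62.9 ± 1.09 CPM in control (0.60 ± 0.05, edgeR adjusted p = 2.65e-05). CCNA1, a germline cyclin A gene, was scarce, with means of 1.65 ± 0.113 CPM in FB23-2 libraries and 0.417 ± 0.0558 CPM in control libraries (1.99 ± 0.40, edgeR adjusted p = 0.00301). MNAT1, a subunit of the kinase that activates CDKs, rose little (0.21 ± 0.07, edgeR adjusted p = 0.0303). With any 1 library left out it did not pass (0.0722 to 0.153 over these, and 0.0118 to 1 over all alternatives). The partner subunit genes of MNAT1, CDK7 (edgeR adjusted p = 0.293) and CCNH (0.627), did not pass, and their groups overlapped. CDK2 (0.19 ± 0.04) and CCNA2 (0.16 ± 0.04), named because the count is small, were the others that rose. The CCNA2 call was lost when FB23-2 replicate 2, control replicate 1 or control replicate 2 was left out, and the CDK2 call when control replicate 2 was. The count of higher genes was 3 without FB23-2 replicate 2, 3 without control replicate 1 and 2 without control replicate 2. CCNE1 averaged 16.5 ± 0.307 CPM with FB23-2 and 15.2 ± 0.603 CPM in control and did not pass (0.12 ± 0.10, edgeR adjusted p = 0.406).

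Among 17 genes for the turnover and folding of these proteins, 3 were higher, a share near that of all genes, and 7 lower, with a median log2 fold change of -0.04. The HSP90 genes, whose products hold CDK4 and CDK6 for folding, fell most. HSP90AB1 averaged 749 ± 19.4 CPM with FB23-2 and 2254 ± 18.1 CPM in control (-1.59 ± 0.03), and HSP90AA1 fell by 1.07 on the log2 scale. CDC37, the partner that brings kinases to HSP90, averaged 179 ± 2.12 CPM in FB23-2 libraries and 175 ± 3.38 CPM in control (0.03 ± 0.04, edgeR adjusted p = 0.630). Of the ligase that marks p27 for destruction, the F-box protein gene SKP2 fell to 81.7 ± 2.26 CPM with FB23-2, against 133 ± 4.68 CPM in control (-0.71 ± 0.05). Its cofactor CKS1B rose to 214 ± 0.148 CPM with FB23-2, against 147 ± 0.0352 CPM in control (0.54 ± 0.04). The subunit genes SKP1 (edgeR adjusted p = 0.453) and CUL1 (0.263) did not pass, and their groups overlapped. DTL, the adaptor of the ligase that removes p21 in S phase (0.27 ± 0.04), and FZR1, an activator of the anaphase-promoting complex in G1 (0.22 ± 0.05), rose. Of the subunit genes that serve with DTL, DDB1 (-0.47 ± 0.04) and CUL4A (-0.37 ± 0.05) fell, and CUL4B (-0.04 ± 0.05) did not pass. FZR1 lost its call when control replicate 1 was left out (edgeR adjusted p = 0.0607, in a range of 0.00186 to 1), and the count of higher genes there was 2.

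Of 12 pocket protein, E2F and DP genes, 4 were higher and 4 lower, with a median of -0.08, and over all genes the calls are likewise near even. The E2F members that repress late in the cycle were higher: E2F8 averaged 90.5 ± 2.90 CPM with FB23-2 and 45.9 ± 1.52 CPM in control (0.98 ± 0.06), and E2F7 rose by a log2 fold change of 0.47 ± 0.06. E2F2, an activating member, rose (0.53 ± 0.05), as did RBL2, the RB1 relative p130 that gathers in resting cells (0.40 ± 0.05). The repressive partners of the pocket proteins E2F5 (-0.63 ± 0.09) and E2F4 (-0.34 ± 0.05) fell, and so did E2F1 (-0.26 ± 0.06) and TFDP1 (-0.13 ± 0.04). RBL2 and TFDP1 are named because the counts are small. TFDP1 (edgeR adjusted p = 0.0265) lost its call in 6 alternatives, among them those that left out FB23-2 replicate 2 or either control library. Without control replicate 2 the count of lower genes was 2, and E2F1 missed the threshold (edgeR adjusted p = 0.0829, in a range of 0.00289 to 1). Of 8 genes for the MuvB core and its partners, which pair with pocket proteins or with mitotic activators, 7 were higher and 0 lower (median 0.27), or 4 higher without control replicate 2. LIN54 (0.57 ± 0.05), LIN37 (0.54 ± 0.14) and LIN9 (0.40 ± 0.08) rose most. The genes of the mitotic activators, FOXM1 (0.30 ± 0.05) and MYBL2 (0.21 ± 0.04), rose too. The LIN37 call was lost when FB23-2 replicate 1 (0.106) or control replicate 2 (0.129) was left out (0.00313 to 1 over its alternatives).

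Of 26 S phase genes that E2F is known to induce, 8 were higher and 11 lower, with a median of -0.15. The lower side was led by subunits of the replicative helicase. MCM5 averaged 105 ± 5.44 CPM with FB23-2 and 212 ± 3.24 CPM in control (-1.01 ± 0.05), and MCM6 (-0.94 ± 0.04) and MCM7 (-0.83 ± 0.04) followed. On the higher side were CLSPN, a checkpoint adaptor at the fork (0.53 ± 0.05), and the nucleotide genes TK1 (0.43 ± 0.07) and RRM2 (0.27 ± 0.04). TK1 averaged 68.1 ± 0.865 CPM in FB23-2 libraries and 50.6 ± 4.71 CPM in control. The count of higher genes was 5 without FB23-2 replicate 1, without control replicate 1 or without control replicate 2.

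Among 18 known transcription regulators of the 10 genes, 5 were higher and 7 lower (median -0.14). MYC, a known repressor of CDKN1A and activator of CDK4, fell by 2.55 on the log2 scale (edgeR adjusted p = 3.77e-08). STAT5A, a mediator of cytokine signals to the D cyclin genes, averaged 3.17 ± 0.779 CPM with FB23-2 and 8.16 ± 1.19 CPM in control (-1.35 ± 0.21), and MYB fell (-0.66 ± 0.04). FOXO1, an activator of CDKN1B, averaged 17.9 ± 0.268 CPM with FB23-2 and 9.36 ± 0.500 CPM in control (0.95 ± 0.11, edgeR adjusted p = 1.56e-04). FOXO4 (0.32 ± 0.09) and ZBTB17, the MYC partner MIZ1 (0.28 ± 0.08), rose too, and KLF6 (0.19 ± 0.06) and FOXO3 (0.17 ± 0.06) are named because the count is small. With adjusted p values of 0.0367 and 0.0479 (edgeR), the KLF6 call was lost in 8 of 13 alternatives and the FOXO3 call in 11, for both with any 1 library left out. FOXO4 and ZBTB17 did not pass without FB23-2 replicate 1 or control replicate 1. The count of higher genes was 1 without FB23-2 replicate 1, 3 without FB23-2 replicate 2, 1 without control replicate 1 and 3 without control replicate 2. Whether any of these regulators moved the 10 genes was not tested.

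**Figure D4:**
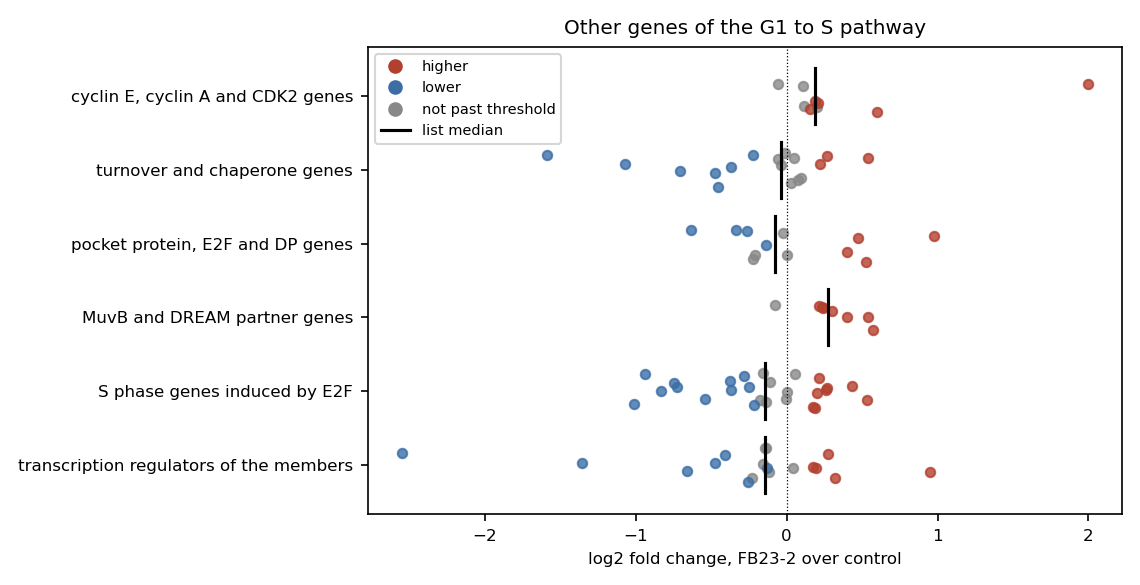
Log2 fold changes (FB23-2 over control) of tested genes in 6 further lists of the G1 to S pathway, 1 row per list, with a black line at each list median. Red points are higher and blue points lower at an adjusted p of 0.05, grey points did not pass, and the vertical place within a row carries no value; MYC is the lowest point at -2.55.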

How the data were processed

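RNA-seq counts of 4 libraries of J.gamma1 cells, 2 per group, were used. The authors deposited whole-number counts per Ensembl gene in 1 table, with no normalization. Per the submitters' processing notes, HISAT2 2.2.0, StringTie and hg38 were used. Not given in the sources used here: the annotation, the strand setting and the counting step. No header or label says whether the counts are of reads or came from assembled coverage. Columns were matched to samples by title and library name. Symbols came from a list of gene IDs, which named 56105 IDs, and coordinates, exon lengths and exon overlaps from GENCODE release 29 on the same build.

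Genes were filtered with filterByExpr (minimum count 10), which left 18817, scaled by TMM and tested with glmQLFit (robust) and glmQLFTest in edgeR 4.0.16 under R 4.3.3, with Benjamini-Hochberg adjustment over all tested genes. An SE is the absolute log2 fold change over the square root of F. CPM per kb used the union of exons. The fit was tested on simulated data. Replicates differed beyond sampling noise (chi-square per degree of freedom 6.69 for FB23-2 and 7.48 for control), so none was a copy. The floor of 3 counts covers counting error only.

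The 10 genes and the other lists were chosen with earlier results of these data known. Named genes were the 10, up to 3 called genes per direction of largest change from each other list, lists of up to 3 genes whole, MYC, FTO, PLCG1 and genes with exons overlapping the 10. Genes added after their values were seen were CDK2, CCNA2, CCNE1, CDC37, SKP1, CUL1, DDB1, CUL4A, CUL4B, RBL2, TFDP1, KLF6, FOXO3, PECAM1 and CD79A. Further such genes were CDK7, CCNH, FOXM1, MYBL2 and STAT5B. The summed ratios were also added after the values were seen. Alternatives were 3 other scalings, DESeq2 1.42.0, limma 3.58.1 (voom), no filter, a filter at a mean of 1 CPM, a replicate block, a test against 1.5-fold and leaving out each library. With 1 library left in a group, that library is assumed to vary like the other group.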

Additional observations from a re-analysis of the deposited data

How the results depend on the processing

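Directions of all 10 genes were the same under the 13 alternatives, 12 for CCND1, which a filter at a mean of 1 CPM removed. The test against 1.5-fold left 2 of the 10 higher and 0 lower, 434 of all genes higher and 678 lower. In the same test the higher counts of the lists were 1 (cyclin E, cyclin A and CDK2), 0 (turnover), 1 (pocket protein and E2F), 0 (MuvB), 0 (S phase) and 1 (regulators), and the lower counts 2 (turnover), 0 (pocket protein and E2F), 4 (S phase) and 2 (regulators); fewer genes pass there by construction. With 1 library left out, the 10 genes gave 5 higher in each case and 2 to 4 lower. The lists gave 2 to 4 higher for cyclin E, 2 to 3 higher for turnover, 2 to 4 lower for pocket protein and E2F, 4 to 6 higher for MuvB, 5 to 8 higher for S phase, and 1 to 3 higher and 5 to 7 lower for regulators. Over all genes these ranged from 2899 to 3439 higher and from 2751 to 3316 lower. Upper quartile scaling called 1 MuvB gene lower and 3 regulators higher; DESeq2 called 3 regulators higher; no filter called 1 regulator and 5 S phase genes higher. The cause of these shifts was not tested. Replicate numbers are shared by the groups, but the labels do not say that they mark a shared culture, and the correlation of same-numbered deviations over genes was 0.0623. With a replicate block 5 of the 10 were higher and 4 lower, and 4238 of all genes were higher and 4030 lower. CDKN1A and CCND1 rest on the fewest counts, which limits their precision.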
